A study of Mus musculus with 6 samples.

Results

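Heterotrimeric G proteins carry signals from receptors on the cell surface to enzymes and ion channels, and regulators of G protein signalling (RGS proteins) switch them off. In cortical TRAP RNA measured on 6 Affymetrix arrays, 39 genes of these families passed an intensity filter, out of 10830 genes in all: 23 G protein subunits and 16 regulators. They were chosen by symbol alone, from names starting with Gna, Gnb, Gng or Rgs followed by the letters or numbers of the known family members. Each gene stands by its probe set of highest mean intensity, kept where the mean of at least 1 title group reached 50. The pattern matched 49 symbols before this filter, which were 27 subunit genes, 21 regulator genes and Gnasas1, an antisense transcript that is no subunit. Gna14, Gna15, Gnb3, Gng8, Rgs1, Rgs13, Rgs18 and Rgs9bp fell below the filter, as did Gnasas1. Rgs11 lay just outside it, with group means of 49.1 and 42.8. The dimmest member kept was Gna12, with group means of 104.9 and 94.1 and values between 63.8 and 130.4 on the 6 arrays.

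All arrays came from Glt25d2 bacTRAP mice of line DU9, backcrossed from FVB onto C57BL/6 for 3 to 5 generations. Per the labels, the mice drank either fluoxetine, a serotonin reuptake inhibitor, at 0.167 mg/ml in 1% saccharine, or 1% saccharine alone, over 15 to 18 days. In TRAP (translating ribosome affinity purification), a bacterial artificial chromosome drives a tagged ribosomal protein in the cells that use the Glt25d2 promoter, and the RNA bound to the tagged ribosomes is pulled down. The gene is now named Colgalt2, and its promoter is active in deep cortical projection neurons, and all animals of both groups carry the transgene. The titles number 3 arrays per group, and the labels call these biological replicates without giving the number of mice in each. P-values therefore measure the spread between these 6 samples.

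The direction of the treatment differences cannot be settled from the labels. The title, source and treatment fields put each array in one group, and its description field names the opposite treatment. The arrays are called fluoxetine-titled and vehicle-titled here, and every sign would turn if the description field were right. Comparisons between replicate numbers do not depend on that choice.

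In the resting state an alpha subunit holds GDP and is bound to a beta-gamma dimer. An active receptor exchanges the GDP for GTP, alpha and beta-gamma separate, and both act on effectors until the alpha subunit hydrolyses its GTP. RGS proteins speed that hydrolysis. Alpha subunits of the Gs class raise cyclic AMP, those of the Gi/o class lower it, the Gq class activates phospholipase C, and the G12 class acts on the cytoskeleton. Cortical pyramidal neurons receive serotonin through receptors of several of these classes.

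Promoter sequence was examined because cyclic AMP, which the Gs and Gi/o classes set, acts on transcription through CREB, which binds the cyclic AMP response element. The 250 bases before each annotated start were read from RefSeq (GRCm38.p6), which held promoters for 32 of the 39 genes. The letters searched were TGACG and its reverse complement CGTCA, which is the same motif on the other strand, and the full palindrome TGACGTCA, which contains both and so counts as a match to the shorter form as well. Of the 32 genes, 9 held the short form in at least 1 promoter (28.1%), against 19.8% of the 27025 genes in the table. These shares are not like for like, since the 27025 genes were not filtered by intensity. The number of starts per gene also differs, with 45 starts for the 32 genes and 32851 for the 27025. None of the 32 held the full palindrome, which 1.77% of all genes held. The windows of 60 bases around the match are given for 5 of these 9 genes, with the match in capitals and each read 5′ to 3′ along the gene's own strand. They stand for the widely expressed Gs alpha subunit, a pair of R4 regulators, a gamma subunit with 2 matches in 1 window, and the R7 anchor.
Gnas: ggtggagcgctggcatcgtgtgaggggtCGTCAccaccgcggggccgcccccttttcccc
Rgs2: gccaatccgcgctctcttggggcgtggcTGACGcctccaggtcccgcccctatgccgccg
Rgs4: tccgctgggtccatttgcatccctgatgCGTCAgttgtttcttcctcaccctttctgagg
Gng4: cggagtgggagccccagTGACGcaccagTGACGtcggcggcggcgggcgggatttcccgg
Rgs7bp: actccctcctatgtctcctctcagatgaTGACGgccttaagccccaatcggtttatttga
The Gnas window lies at chr2:174329762-174329821, plus strand, and its match begins 216 bases before the start. Gnas had a match at 3 of its 4 starts, of which 1 is shown. The nearest match of the other 2 is the same site, beginning 38 and 57 bases before them. The Rgs2 window lies at chr1:144004185-144004244, minus strand, with the match from 67 bases before the start. For Rgs4 it lies at chr1:169747752-169747811, minus strand, with the match from 141 bases before the start. For Gng4 it lies at chr13:13784239-13784298, plus strand, with the match nearer the start beginning 40 bases before it. For Rgs7bp it lies at chr13:105055070-105055129, minus strand, with the match from 171 bases before the start. The 9 genes with a match had a median treatment difference of -0.062 on the log2 scale, between -0.19 and 0.062. The 23 without one had a median of 0.010, between -0.21 and 0.31. These ranges overlap, and a match describes letters only.

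Between fluoxetine-titled and vehicle-titled arrays, no subunit and no regulator passed an adjusted p of 0.05 in limma. The background was 0% of all genes called without a block and 0% with replicate numbers blocked. In limma there was an unadjusted p under 0.05 at 121 of 19073 probe sets without the block and at 767 with it, and the smallest adjusted p with the block was 0.993. The 95% interval of the difference left out 0 for none of the 39 genes and for 0.591% of all genes. Values were GCRMA intensities on a linear scale, and differences are fluoxetine-titled minus vehicle-titled on the log2 scale, given with their standard error (SE) over 3 against 3 arrays.

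The median difference was -0.036 over the 23 subunits and -0.0092 over the 16 regulators, beside -0.0068 over all 10830 genes. For arrays of equal replicate number, the subunit medians were -0.069, -0.021 and -0.043 in pairs 1, 2 and 3, and the regulator medians were 0.0098, -0.037 and 0.051. The title groups overlapped for every member. Among all genes they did not overlap with fluoxetine-titled arrays higher for 1.63% and with these arrays lower for 1.98%. In the fit without a block, the interval lay within a 2-fold change in both directions for 36 of the 39 genes, or 92.3%, against 96.0% of all genes. The exceptions were Rgs5, Rgs16 and Rgs7bp. With replicate numbers blocked, their SEs were 0.13, 0.25 and 0.10, against 0.42, 0.33 and 0.40 without the block. Over the 39 genes the median SE was 0.11 with the block and 0.17 without it. The SEs of treatment differences given below are those without the block, and they include the spread between replicate numbers. For Rgs19 the SE was 0.34 without the block and 0.10 with it, and for Rgs9 0.18 and 0.10.

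**Figure D1:**
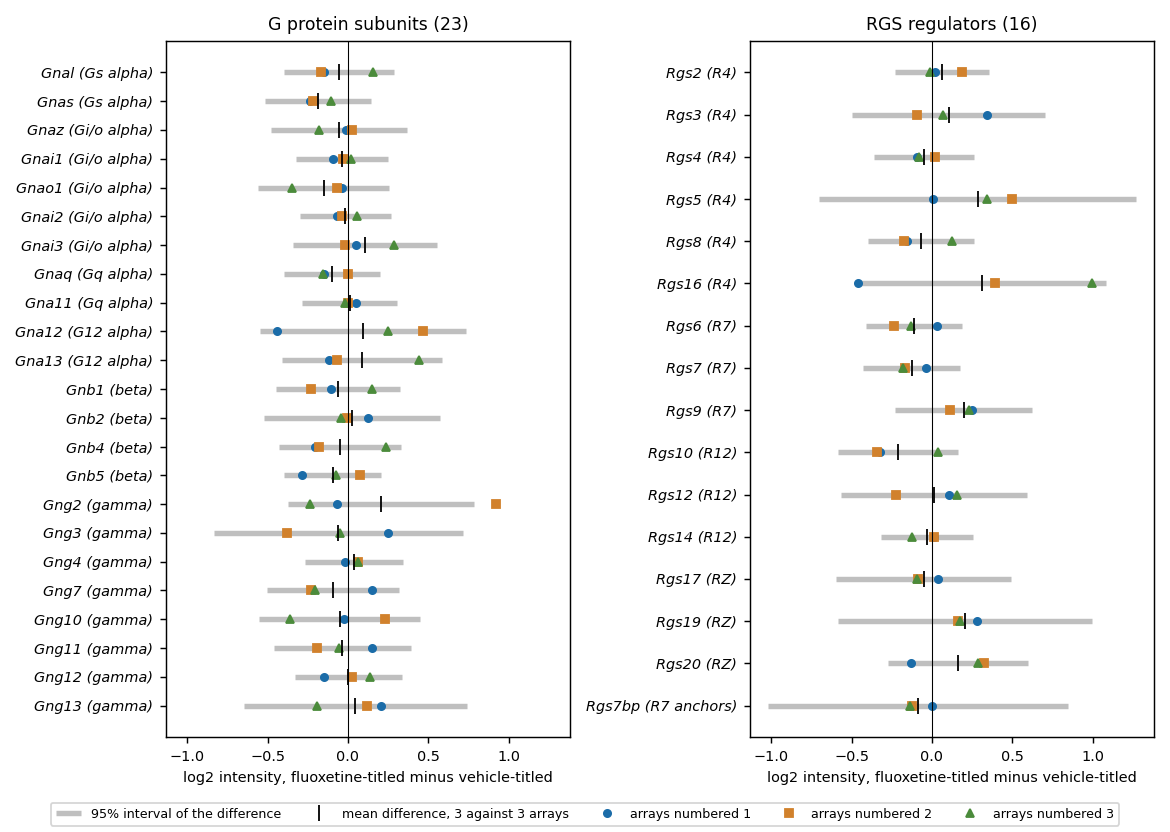
Log2 difference in GCRMA intensity, fluoxetine-titled minus vehicle-titled, for the 23 subunits (left) and 16 regulators (right) with their class in brackets. Black ticks are means of 3 against 3 arrays, grey bars the 95% intervals from limma and coloured symbols the differences between arrays of equal replicate number; every grey bar crosses 0.

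Both Gs subunits were measured. Gnas encodes the widely expressed Gs alpha subunit and differed by -0.19 ± 0.14 (SE, n = 3 per group). It had the smallest unadjusted p of the 39 genes in limma without the block, 0.222. In limma with replicate numbers blocked, its p was 0.108 and that of Rgs5 was the smallest, 0.062. The intensity of Gnas was 21378, 25460.1 and 25487 on fluoxetine-titled arrays 1, 2 and 3 and 25141, 29642 and 27446 on vehicle-titled arrays 1, 2 and 3. The fluoxetine-titled array was the lower one in all 3 pairs, yet 2 fluoxetine-titled values exceeded the lowest vehicle-titled one. Values of other genes are given in the same order, arrays 1, 2 and 3 of the fluoxetine-titled group against arrays 1, 2 and 3 of the vehicle-titled group. Gnal encodes Golf, the related subunit best known from olfactory and striatal neurons. Its values were 1373, 1444 and 1373 on the fluoxetine-titled arrays and 1524, 1624 and 1233 on the vehicle-titled arrays, a difference of -0.055 ± 0.15. The vehicle-titled arrays 1 and 2 were the highest for Gnal and the vehicle-titled array 3 was the lowest.

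The 5 Gi/o alpha subunits had differences between -0.15 and 0.11. Gnao1 encodes the abundant neuronal Go subunit. It was at 4287, 5504 and 4709 on the fluoxetine-titled and 4401, 5759 and 6006 on the vehicle-titled arrays, with a difference of -0.15 ± 0.17. All 3 pairs were lower on the fluoxetine-titled side, with differences of -0.038, -0.066 and -0.35, of which pair 3 had the largest. Gnai1, an inhibitor of adenylyl cyclase common in brain, gave 17766, 18063 and 17059 against 18991, 18440.5 and 16847, a difference of -0.036 ± 0.12 with array 3 the lowest in both groups. Gnai2, the more broadly expressed Gi subunit, gave 2673, 2892 and 2988 against 2804, 2965 and 2872 (-0.016 ± 0.12), and its groups were interleaved. Gnai3, also an inhibitory alpha subunit, gave 643, 660.0 and 538 against 620.3, 669.8 and 441 (0.11 ± 0.19); array 3 was the lowest in both groups. Gnaz, the Gz subunit found mostly in neurons, gave 1330.2, 1653 and 1692 against 1341, 1622 and 1918 (-0.055 ± 0.18), and array 1 was the lowest in both groups.

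Among the Gq subunits, Gnaq was at 5648, 6589 and 5675 on the fluoxetine-titled arrays and 6266, 6586 and 6309 on the vehicle-titled arrays. Its difference of -0.10 ± 0.13 came from pairs 1 and 3, since pair 2 differed by 0.00071. Gna11, its close relative, had 1831, 2033 and 1922 against 1772, 2033 and 1944, which differed by 0.010 ± 0.13. Both G12 subunits, Gna12 and Gna13, had larger errors: 0.092 ± 0.27 for the dim Gna12 and 0.087 ± 0.21 for Gna13.

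The beta subunits form the dimer with gamma. Gnb1 had 10481, 8032 and 10760.4 on the fluoxetine-titled and 11271, 9437 and 9696 on the vehicle-titled arrays (-0.062 ± 0.16), with array 2 the lowest in both groups. Gnb5 is the beta subunit that pairs with the R7 regulators in place of a gamma subunit. Its values were 2361, 2601 and 2436 against 2885, 2465 and 2565, a difference of -0.10 ± 0.13 in which the vehicle-titled array 1 stood highest. Gnb2 and Gnb4 differed by 0.025 ± 0.23 and -0.051 ± 0.16.

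Of the 8 gamma subunits, which anchor the dimer to the membrane, Gng2 had the largest difference, 0.21 ± 0.25. It was at 771, 853 and 646 on the fluoxetine-titled arrays and 809, 449.8 and 761 on the vehicle-titled arrays. The vehicle-titled array 2 was far below the other 5, so that pair 2 differed by 0.92 while pairs 1 and 3 differed by -0.069 and -0.23. Without that array the Gng2 difference was -0.061. The others lay closer to 0: Gng3, a neuronal gamma subunit, at -0.059 ± 0.33, Gng4 at 0.037 ± 0.13, Gng7, known for its partnership with Golf in striatum, at -0.094 ± 0.17, Gng10 at -0.052 ± 0.21, Gng11 at -0.034 ± 0.18, Gng12 at 0.0029 ± 0.14 and Gng13 at 0.046 ± 0.30.

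The R4 regulators are small proteins made of little more than the RGS domain. Rgs2, an activity-induced gene whose product acts mainly on Gq, was at 10273, 11791 and 10766 against 10156, 10376 and 10872 (0.062 ± 0.12). Rgs4, which acts on Gi/o and Gq and is abundant in cortical neurons, was at 9579.6, 11031 and 9241 against 10203, 10892 and 9770.3 (-0.051 ± 0.13). For both genes the groups overlapped, and the fluoxetine-titled array 2 was the highest. Rgs16, another inducible R4 member, had the largest difference of the 39 genes, 0.31 ± 0.33, and one of the widest errors. Its intensity was 227, 491 and 438 on the fluoxetine-titled and 312, 373 and 219 on the vehicle-titled arrays, and the pairs ran from -0.46 in pair 1 to 1.00 in pair 3. Rgs3 and Rgs8 differed by 0.10 ± 0.26 and -0.069 ± 0.14.

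Rgs5, an R4 regulator best known as a marker of pericytes, was at 479, 466 and 227 on the fluoxetine-titled arrays and 477, 329 and 179 on the vehicle-titled arrays. The difference was 0.28 ± 0.42, with a 95% interval of -0.70 to 1.27, and the fluoxetine-titled array was higher by 0.0062, 0.50 and 0.35 in pairs 1, 2 and 3. Its values differed more between replicate numbers than between title groups. Of 5 mural cell markers, Acta2 and Pdgfrb passed the filter and Abcc9, Kcnj8 and Higd1b did not. Abcc9, at 41.1, 24.7 and 5.7 against 30.3, 17.1 and 7.2, had the same order over replicate numbers as Rgs5, at intensities below the filter. The others, Acta2, Pdgfrb, Kcnj8 and Higd1b, did not have that order in both groups. The summed intensity of Acta2 and Pdgfrb was 710 to 761 on the fluoxetine-titled arrays and 437 to 527 on the vehicle-titled arrays, without overlap. Of the 5 markers only Acta2 did not overlap by itself, at 399 to 538 against 269 to 370. Pdgfrb did overlap, at 172 to 352 against 145 to 255. Over all genes, 1.63% did not overlap with fluoxetine-titled arrays higher. The part of mural RNA in the Rgs5 values was not tested, and in these bulk samples fewer cells of a type and less RNA per cell cannot be told apart.

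The R7 regulators act on Gi/o together with Gnb5. Rgs7, an R7 member widely expressed in brain, was lower on the fluoxetine-titled side in all 3 pairs, with 3379.8, 3669.8 and 3481 against 3466, 4116 and 3940.2 and a difference of -0.13 ± 0.13. Rgs9, which is best known from striatum, was higher in all 3 pairs, with 399, 452 and 343 against 335, 418 and 293 and a difference of 0.20 ± 0.18. The groups overlapped for both genes. The 4 kept markers of striatal neurons summed to 1851 to 2064 on the fluoxetine-titled and 1737 to 2514 on the vehicle-titled arrays, and their part in the Rgs9 and Gnal values was not tested. Rgs6 differed by -0.11 ± 0.13, and Rgs7bp, which is no RGS protein but tethers R7 complexes to the membrane, by -0.087 ± 0.40.

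Rgs10, an R12 regulator found in microglia and in neurons, was at 374, 448 and 439 on the fluoxetine-titled arrays and 468, 569 and 428 on the vehicle-titled arrays. It was the regulator with the most negative difference, -0.21 ± 0.16, from pairs 1 and 2 (-0.32 and -0.34), while pair 3 differed by 0.035. The 4 of 6 microglial markers that passed the filter (Csf1r, Cx3cr1, Aif1 and C1qa) summed to 982 to 1266 on the fluoxetine-titled and 600 to 1462 on the vehicle-titled arrays. Tmem119 and P2ry12 did not pass it, and the part of microglial RNA in the Rgs10 values was not tested. Rgs14, known from hippocampal neurons, was at 1039, 1071 and 1069 against 1029.8, 1060.2 and 1164 (-0.032 ± 0.12), with the vehicle-titled array 3 the highest. Rgs12, a large R12 member with several protein-binding domains, differed by 0.013 ± 0.25.

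**Figure D2:**
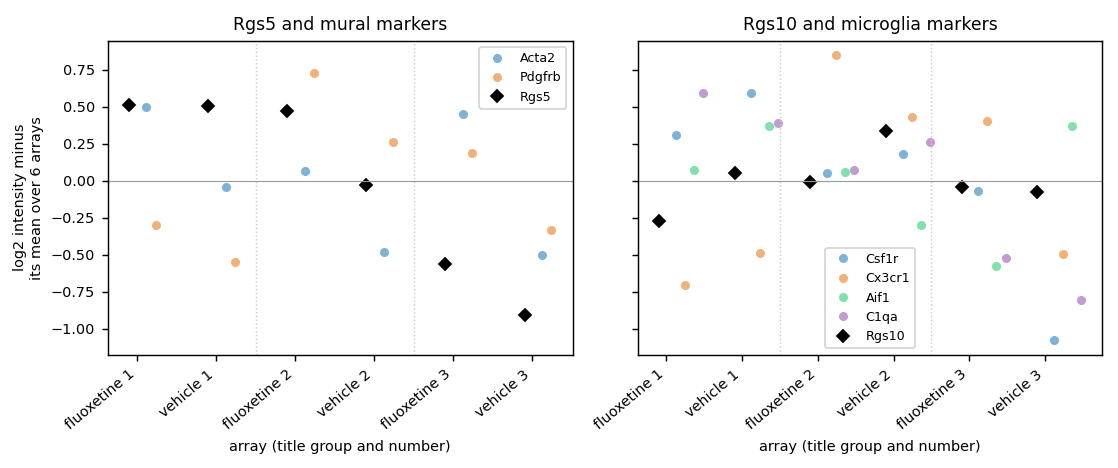
Log2 intensity of Rgs5 with the 2 kept mural markers (left) and of Rgs10 with the 4 kept microglial markers (right) on each of the 6 arrays, each gene centred on its mean over the arrays. Rgs5 (black diamonds) was highest on both arrays numbered 1 and lowest on both numbered 3; neither kept mural marker had that order.

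The RZ regulators favour Gz and Gi alpha subunits. Rgs19 was at 1726, 839 and 969 on the fluoxetine-titled arrays and 1422, 749.5 and 859 on the vehicle-titled arrays, higher in all 3 pairs with a difference of 0.21 ± 0.34. Rgs20, the RZ member named for its action on Gz, was at 1746, 2571 and 1954 against 1908, 2049 and 1599.8 (0.16 ± 0.19), where pairs 2 and 3 were higher and pair 1 lower. Rgs17 differed by -0.050 ± 0.23. Counted over the 39 genes, 3 were higher in all 3 pairs (Rgs5, Rgs9 and Rgs19) and 3 were lower (Gnas, Gnao1 and Rgs7), beside 10.9% higher and 13.1% lower over all genes. For 30 of the 39 genes, at least 1 alternative setting or left-out array gave a difference of the other sign. The sign held in all of those tried for Gnas, Gnai1, Gnaq, Rgs6, Rgs7, Rgs8, Rgs9, Rgs10 and Rgs20, none of which passed the test.

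The arrays numbered 1 were closer to each other than to any other array. The SD of the log2 difference over probe sets was 0.23 to 0.29 between arrays of equal number and 0.28 to 0.51 between arrays of 1 title group. Between replicate numbers, with the title group as a term, 2827 of 19073 probe sets passed an adjusted p of 0.05 in limma's F test over both number coefficients, and 12.9% of all genes did so by their main probe set. Of the subunits 3 of 23 passed (13.0%), a share near that background. Of the regulators 6 of 16 passed (37.5%). What a number stands for is not given in the labels, and the differences below are the arrays numbered 1 minus the mean of those numbered 2 and 3, on the log2 scale. Of 4 signal ratios along the actin and Gapdh control transcripts, 1 set the arrays numbered 1 apart. The log2 ratio of 3′ to middle signal of actin was 2.17 and 2.28 on them and 1.81 to 1.95 on the other 4 arrays. The remaining ratios overlapped: actin 3′ to 5′ was 2.70 and 3.05 beside 2.91 to 3.08, Gapdh 3′ to middle 0.68 and 0.76 beside 0.74 to 0.81, and Gapdh 3′ to 5′ 0.88 and 1.25 beside 1.23 to 1.63. The part of RNA quality in the differences between numbers was not tested.

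Among the subunits, Gng3 and Gng13 were higher and Gnb2 was lower on the arrays numbered 1. Gng3, with 6437, 2682 and 3736 on the fluoxetine-titled and 5413, 3482 and 3869.9 on the vehicle-titled arrays, differed by 0.79 ± 0.15 (adjusted p = 0.033, limma). Both arrays numbered 1 were above all the others. Gng13, a gamma subunit best known from sensory cells, had 3445, 1873 and 2608 against 2982, 1724 and 2975 and differed between numbers by 0.52 ± 0.13 (adjusted p = 0.028, limma); both arrays numbered 2 were the lowest. Gnb2, one of the main beta subunits of brain, had 9039, 13471 and 11858 against 8295, 13520.5 and 12219, with the arrays numbered 1 the lowest and a difference of -0.56 ± 0.11 (adjusted p = 0.037, limma). The next smallest p-values between numbers among the subunits belonged to Gnai3, Gnaz and Gng11, none of which passed. Gng11, a gamma subunit expressed mainly outside neurons, had 577, 380.0 and 467 against 521, 435 and 484.

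Among the regulators, Rgs7bp, Rgs17, Rgs3 and Rgs12 were lower and Rgs19 and Rgs5 higher on the arrays numbered 1. Rgs7bp, the R7 anchor, had 3244, 6434 and 6644 on the fluoxetine-titled and 3239, 7014 and 7309 on the vehicle-titled arrays. The arrays numbered 1 were nearly equal to each other and lower than the rest, a difference of -1.08 ± 0.11 on the log2 scale (adjusted p = 0.0073, limma). Rgs19, at the values given above, differed by 0.88 ± 0.11 the other way (adjusted p = 0.011, limma). Rgs5 differed by 0.77 ± 0.13, and its arrays numbered 2 exceeded those numbered 3 by 0.96 ± 0.16 (adjusted p = 0.012 over both terms, limma).

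Rgs17, an RZ regulator expressed in brain, had 1735, 2557 and 2345 against 1693, 2719.7 and 2506, lower on the arrays numbered 1 with a difference of -0.56 ± 0.11 (adjusted p = 0.037, limma). Rgs3 had 194, 249 and 277 against 153, 266 and 265 (-0.62 ± 0.13, adjusted p = 0.047, limma), and Rgs12 had 652, 895 and 985 against 606, 1046 and 882 (-0.60 ± 0.13, adjusted p = 0.049, limma). For each of these 3 genes both arrays numbered 1 lay below the other 4. Counted over the 39 genes, both arrays numbered 1 were above all others for 6 (Gng3, Gng10, Gng11, Gng13, Rgs5 and Rgs19) and below all others for 14. The background was 24.4% above and 19.9% below over all genes.

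The calls depended on which arrays were included. Without both arrays numbered 1, no member and 2 probe sets were called between the remaining numbers. Without the fluoxetine-titled array 1 alone, no subunit and 2 regulators were called, and 785 probe sets. The counts without the vehicle-titled array 1 were 3 subunits, with Gna12 in place of Gnb2, 3 regulators and 1307 probe sets. Leaving out the fluoxetine-titled array 2 left 0 subunits and 3 regulators, leaving out the vehicle-titled array 2 left 1 and 3, and leaving out both left 1 and 5. Rgs5 kept its call without either single array numbered 1 and lost it without both arrays numbered 3. Gng13, Gnb2 and Rgs17 lost theirs without both arrays numbered 2, and for Gng13 the arrays numbered 2 minus those numbered 3 gave -0.63 ± 0.15. With no intensity filter, no probe set was called between numbers.

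**Figure D3:**
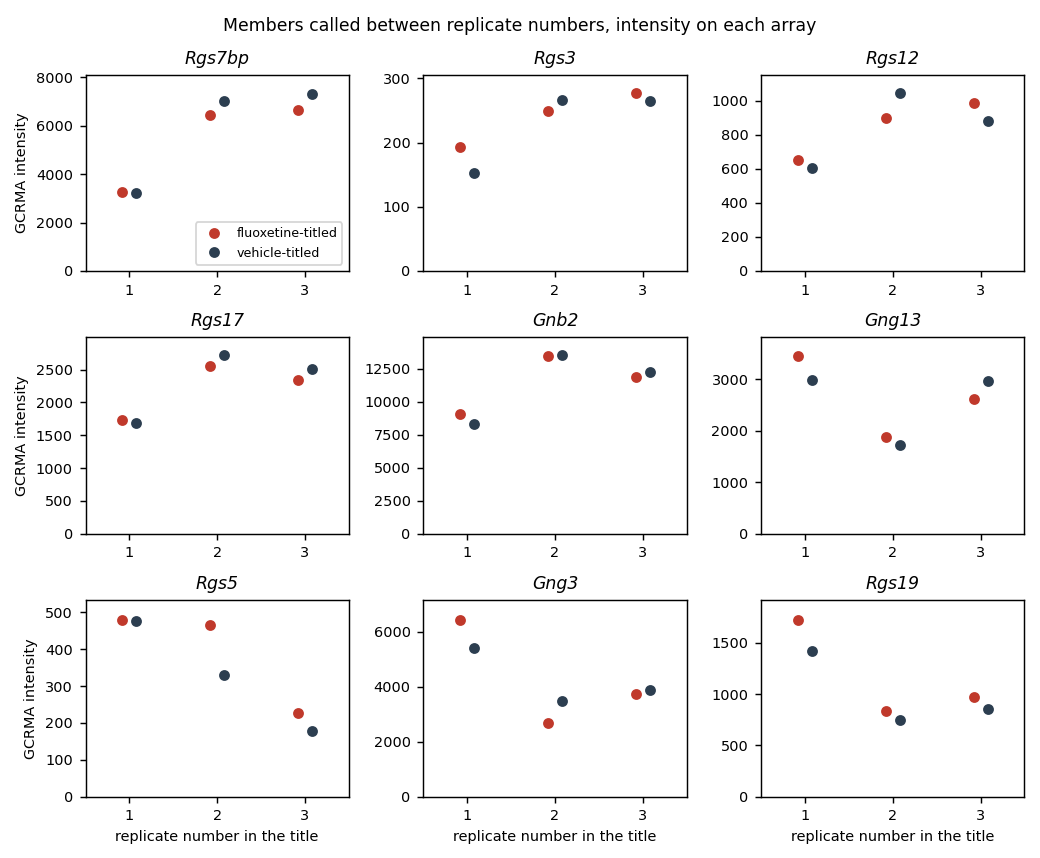
GCRMA intensity (linear axes from 0) against replicate number for the 9 members called between numbers, 1 point per array, red for fluoxetine-titled and dark blue for vehicle-titled. The arrays numbered 1 are both above or both below the other 4 in every panel; in those of Rgs5 and Gng13, the fluoxetine-titled array 2 and the vehicle-titled array 3 come near them.

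Other probe sets of the same genes did not always repeat these differences. The array holds 35 further kept probe sets for 22 of the 39 genes, and 8 of them, in 8 genes, were called between numbers. Over all kept probe sets the share called was 14.8%. Of the 8, those of Gnai1 and Gnaq had the opposite sign to the main probe set. For only 2 of the 8, those of Rgs19 and Rgs7bp, was the main probe set called too. Rgs19's second probe set was higher on the arrays numbered 1 by 0.55 ± 0.12, as was the main one. Rgs7bp had a second probe set that differed by -1.56 ± 0.20 and another at 0.017 ± 0.11, so that its probe sets differed widely. The further probe sets of the called genes Rgs17 and Rgs5 were not called, at 0.049 ± 0.13 and -0.19 ± 0.17, and Rgs17 lost its call when all its kept probe sets were averaged. Gnai2 showed -0.098 ± 0.11 by its main probe set and -1.24 ± 0.13 by its dimmer one, whose intensities were 272 and 233 on the arrays numbered 1 and between 538 and 645 on the others. The remaining called ones belonged to Gna13 (-1.67 ± 0.20), Rgs16 (-0.99 ± 0.13), Gnai1 (-0.80 ± 0.16), Gng2 (0.68 ± 0.12) and Gnaq (0.49 ± 0.11). Which transcript end each probe set reads was not analysed here.

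In the treatment comparison without a block, 1 of the 35 further probe sets had an unadjusted p under 0.05 in limma. Over all 19073 kept probe sets, 121 did. The further probe set belongs to Gng12, a gamma subunit found in glia among other cells. Its values were 91.8, 77.2 and 68.4 on the fluoxetine-titled and 119.5, 102.9 and 110.9 on the vehicle-titled arrays. The groups did not overlap at a difference of -0.50 ± 0.15 (unadjusted p = 0.014, limma), while the brighter main probe set of Gng12 differed by 0.0029 ± 0.14. Among all genes, 1.98% did not overlap with fluoxetine-titled arrays lower. Of the 35 further probe sets, 4 differed from the main one by more than the larger of their SEs. They were those of Gng12, Gnb1 (0.33 ± 0.17 against -0.062) and a pair for Rgs2 (both -0.19 against 0.062). Dimmer probe sets with wide errors could fall short of this measure and still have the opposite sign. Those of Gnao1 (0.16 ± 0.40 against -0.15) and Gnal (0.19 ± 0.33 against -0.055) did so.

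**Figure D4:**
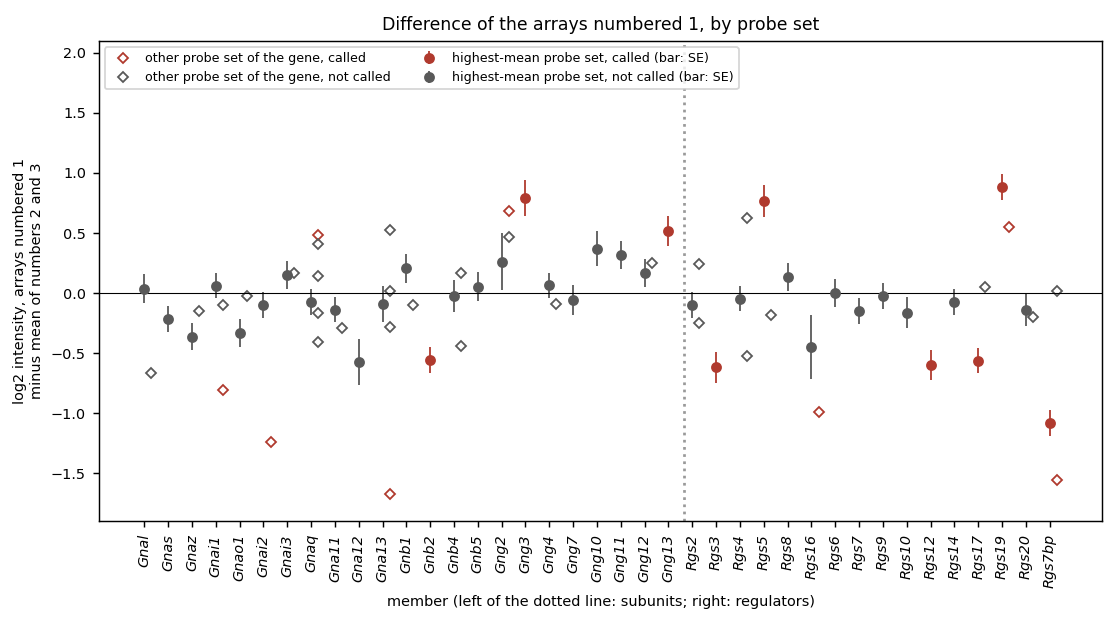
Log2 difference of the arrays numbered 1 from the mean of numbers 2 and 3 for each member (filled points, bars are SE) and for the 35 further probe sets of the same genes (open diamonds); red marks an adjusted p under 0.05 in limma's F test. The red diamonds of Gna13, Gnai1, Gnai2 and Gnaq stand beside a grey main point near 0, and those of Rgs19 and Rgs7bp beside a red one.

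The genes that act just before or after the G proteins were taken from lists of receptor kinases and arrestins, exchange factors, chaperones, adenylyl cyclases, phospholipase C beta, GIRK channels, effectors of the G12 class and proteins with RGS-type domains or G protein partners. Of these neighbours 40 passed the filter, and none passed the treatment test in either direction; 17 differences were positive and 23 negative, with a median of -0.029. The title groups did not overlap for 3 of them, 1 higher and 2 lower on the fluoxetine-titled arrays, beside 1.63% higher and 1.98% lower over all genes. Akap13, an anchoring protein for protein kinase A, was higher on the fluoxetine-titled arrays, at 131.5, 86.1 and 96.1 against 82.4, 81.7 and 54.5 (0.52 ± 0.23). Axin1, a Wnt pathway scaffold with an RGS-type domain, was lower, at 142, 157 and 181 against 197, 193 and 199.6 (-0.30 ± 0.14). Rasd1, a small GTPase that acts on Gi signalling, was also lower, at 65.9, 76.6 and 63.0 against 79.7, 81.3 and 87.0 (-0.28 ± 0.13). The 8 adenylyl cyclases had a median difference of -0.036 and the 3 phospholipase C beta genes one of -0.12. Between replicate numbers 4 neighbours passed (10%, beside 12.9% of all genes), the GIRK subunit gene Kcnj9, Gprin3, Arhgef1 and Arhgef11, all lower on the arrays numbered 1.

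Markers of the labelled cell type and of other cell types were read out. All 6 measured markers of layer 5 projection neurons passed the filter (Colgalt2, Bcl11b, Fezf2, Crym, Ldb2 and Tox), and their sum was 14228 to 17041 on the fluoxetine-titled and 14746 to 16826 on the vehicle-titled arrays. Passing the filter does not single out this cell type, since all 6 interneuron, 6 astrocyte and 5 oligodendrocyte markers passed too. All 6 arrays hold TRAP RNA, so enrichment over unpurified RNA was not tested. The vehicle-titled array 3 had the lowest summed markers of several other cell types. The sum was 13981 for 6 astrocyte markers, beside 21135 to 25865 on the other 5 arrays, 18338 for 5 oligodendrocyte markers, beside 24723 to 32386, and 19075 for 6 interneuron markers, beside 22715 to 27933. The microglial sum was 600 there, beside 982 to 1462. Every astrocyte and oligodendrocyte marker was lowest on that array. Pvalb and Gad2 among the interneuron markers and Aif1 and Cx3cr1 among the microglial ones were not. Aif1 was highest there, at 99.0, beside 51.4 to 98.9. Without this array, 0 subunits and 0 regulators were called between title groups, as with it, and the part of these cell types in the members' values was not tested. Of 5 endothelial markers 1 passed, Cldn5, which was highest on the vehicle-titled array 3 (721, beside 317 to 688). Neither of the 2 blood markers passed.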

How the data were processed

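Per the labels' protocols, 15 ng of TRAP RNA went through the Affymetrix 2-cycle amplification with biotin labelling. The authors deposited linear intensities, 1 column per array. The submitters' processing notes name GCRMA, whose version is not given in the sources used here. GCRMA corrects background and sets the arrays to a common distribution, so a shift shared by all genes would not show. The number of arrays limits the precision. The series text names a second transgene and a published probe set list, which are not used here. Control probe sets were left out, leaving 45037, and 19073 had a mean of at least 50 in 1 group.

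Log2 intensities were fitted with limma 3.58.1 in R 4.3.3 (lmFit, eBayes), and two-sided p-values were adjusted over those 19073 by Benjamini and Hochberg's method. Code was tested on simulated data. Arrays of equal number deviated together from their group means (correlations 0.74, 0.60 and 0.50, against -0.59 to 0.26 for unequal numbers), and a first principal component with 60.0% of the variance set the arrays numbered 1 apart. The pairing therefore rests on the titles' numbers and this check. For treatment differences the fit without a block is reported, so their SEs include the spread between replicate numbers. No array pair looked like a repeated deposit (SD of the log2 difference at least 0.23).

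Names came from the platform annotation, and all 39 Entrez identifiers matched RefSeq. Probe sets with several symbols were not named. Every member is named; values on every array are given for the 6 subunits and 6 regulators of largest difference, the same numbers of smallest p between replicate numbers, and a list of well-known members. Members, lists and rules were chosen with earlier results of these data known. Alternatives tried were the replicate block, quantile and median scaling, other intensity filters, a floor of 50, a pseudocount of 16, the mean of all probe sets of a gene, and leaving out arrays.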

Additional observations from a re-analysis of the deposited data

How the results depend on the processing

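The treatment count was 0 for subunits, regulators and all probe sets under every alternative tried, including the replicate block, and the pairing changed no call. The median treatment difference without single arrays or pairs ran from -0.061 to -0.00012 over the subunits and from -0.062 to 0.10 over the regulators, whose median also changed sign under quantile normalization (0.0013) and with the mean of all kept probe sets (0.010). Between replicate numbers, the count with no intensity filter was 0 for subunits, regulators and all probe sets, and the cause was not tested. The mean of all kept probe sets of a gene gave 5 subunits, with Gnai2 and Gnao1 added. Left-out arrays gave 2 to 3882 probe sets, 0 to 4 subunits and 0 to 5 regulators. Rgs7bp lost its call only with no filter and without both arrays numbered 1. Rgs3 lost its call in 10 settings, quantile normalization and median centring among them, and Rgs12 under median centring. For the comparison between numbers, leaving out both arrays of a number was chosen after seeing the data. With 3 arrays per group and no block, 2-fold changes lay inside the interval for Rgs5, Rgs16 and Rgs7bp.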

Other observations

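Gng5, another gamma subunit, is read by probe sets that the annotation pairs with both Gng5 and the pseudogene Gng5-ps, so it was not counted among the members. The brightest of them had intensities of 2524, 1541 and 2003 on the fluoxetine-titled arrays 1, 2 and 3 and of 2089.6, 1458 and 2171 on the vehicle-titled arrays.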
